A study of Homo sapiens with 9 samples.

Results

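Immune checkpoint receptors and their ligands were followed in 9 orthotopic thyroid tumors of mice by RNA sequencing. The 10 genes were taken by symbol from a table of 17369 genes, as 5 ligands (Cd274, Pdcd1lg2, Pvr, Lgals9 and Cd276) and 5 receptors (Pdcd1, Ctla4, Lag3, Havcr2 and Tigit). All 10 had a value in every tumor, and 9 reached 1 FPKM in at least 3 tumors and entered the test across genes. FPKM is a fragment count scaled by transcript length and by library, so levels of different genes are compared per length. The tumors grew from TBP3743, a line of anaplastic thyroid cancer from B6129SF1 mice with a thyroid-specific Braf mutation and loss of Trp53, which all groups share. In the original/B6129SF1 group, unpassaged cells were injected into the thyroid of B6129SF1 mice. Cells taken after passage round 3 under the skin of C57BL/6 mice were injected into the thyroid of B6129SF1 mice for the adapted/B6129SF1 group and of C57BL/6 mice for the adapted/B6 group. Each group held 3 tumors, from female mice aged 6 weeks that received 100000 cells and were sampled on day 14. The adapted cells are 1 passaged line, so a property of that line and an effect of passage cannot be told apart.

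Checkpoint receptors are surface proteins of T cells, and of some other leukocytes, that dampen activation when a ligand on a tumor cell, macrophage or dendritic cell binds them. PD-1 (Pdcd1) binds PD-L1 (Cd274) and PD-L2 (Pdcd1lg2), CTLA-4 (Ctla4) takes CD80 and CD86 away from the costimulatory receptor CD28, and TIGIT binds the poliovirus receptor (Pvr). LAG-3 (Lag3) binds MHC class II, and TIM-3 (Havcr2) has galectin-9 (Lgals9) and CEACAM1 among its ligands. B7-H3 (Cd276) is a B7 family member whose receptor is not settled.

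The labels call the material cancer epithelial cells, but these were whole tumors. Krt8, a keratin of simple epithelia, was between 153 and 615 FPKM and fell in both adapted groups. By contrast, the epithelial adhesion gene Epcam reached at most 2.49 FPKM and the thyrotropin receptor gene Tshr at most 0.0703 FPKM. Nkx2-1, a thyroid and lung transcription factor, was between 23.5 and 44.5 FPKM. The labels name the organism as human, although the hosts and cells are murine and the values carry mouse symbols. T cell genes were low in every original/B6129SF1 tumor and in adapted/B6129SF1 replicate 1, the adapted tumor with the least T cell RNA. Their summed level over 11 genes was between 6.14 and 9.41 FPKM in original/B6129SF1, between 11.2 and 38.4 FPKM in adapted/B6129SF1 and between 25.9 and 37.0 FPKM in adapted/B6. Skeletal muscle RNA was 6.67% of the FPKM total of adapted/B6129SF1 replicate 3, 1.29% of that of adapted/B6 replicate 1 and no more than 0.154% of the others.

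Per length, Lgals9 was the most abundant of the 10 transcripts and Pdcd1lg2 the least. Mean levels over the 9 tumors were 34.3 FPKM for Lgals9, 17.8 for Pvr, 14.4 for Havcr2, 14.2 for Cd276, 10.2 for Cd274 and 8.10 for Tigit. Below these stood Lag3 at 3.02, Pdcd1 at 2.55, Ctla4 at 1.92 and Pdcd1lg2 at 0.412 FPKM. The ranges of all neighbours in this order overlapped over the 9 tumors. The spread between tumors differed among the genes, with a coefficient of variation of 22.1% for Lgals9 and 71.6% for Pdcd1.

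**Figure D1:**
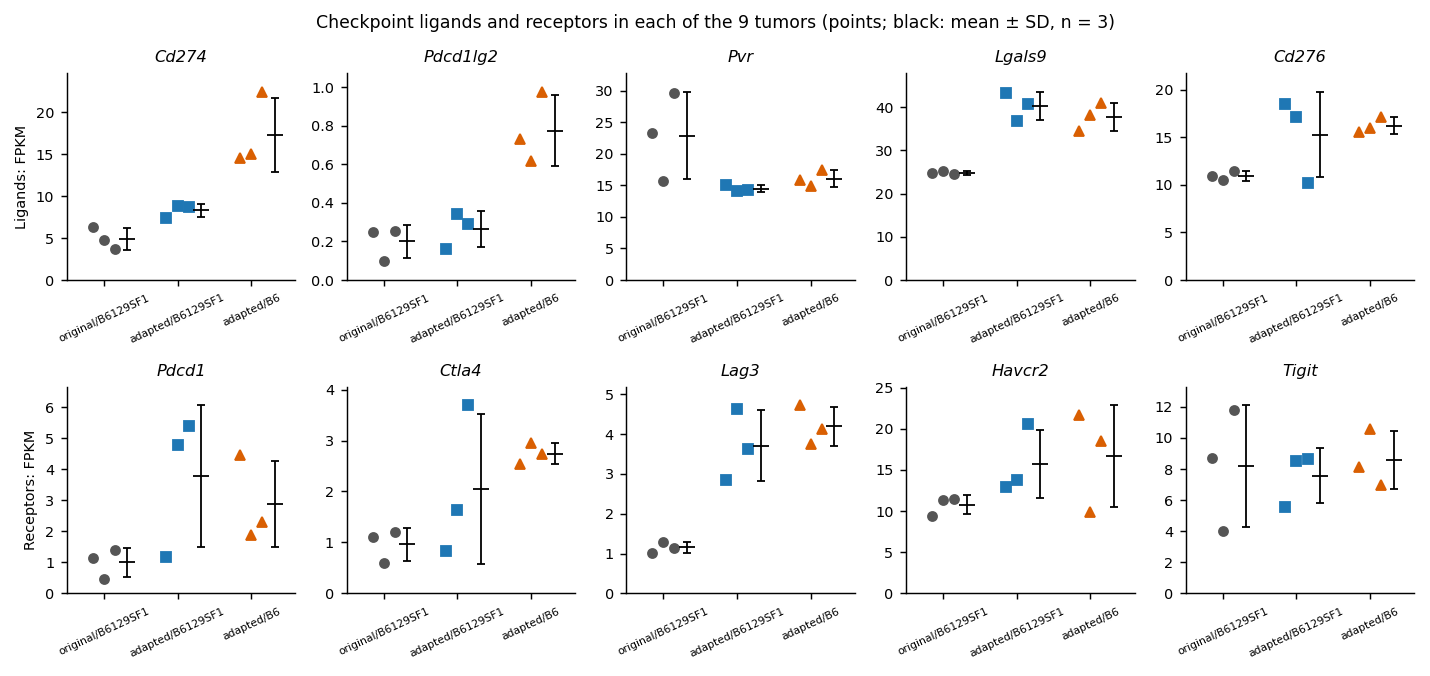
Level of each ligand (top row) and receptor (bottom row) in FPKM on a linear axis, 1 point a tumor, with the mean ± SD of 3 tumors in black. Cd274, Lgals9 and Lag3 were higher in all 6 adapted tumors than in any original/B6129SF1 tumor, and Tigit overlapped between all groups.

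Cd274, which encodes PD-L1, was lowest in original/B6129SF1, intermediate in adapted/B6129SF1 and highest in adapted/B6. Its level was 6.29, 4.75 and 3.70 FPKM in the original/B6129SF1 tumors, 7.42, 8.81 and 8.67 FPKM in adapted/B6129SF1, and 14.5, 15.1 and 22.4 FPKM in adapted/B6. No tumor of any group overlapped with a tumor of another group. The mean in adapted/B6 was 3.53-fold that in original/B6129SF1, with a log2 fold change of 1.63 ± 0.20 (SE, n = 3 tumors a group) on log2(FPKM + 1) and an adjusted p of 0.0036 in limma. The mean in adapted/B6129SF1 was 1.69-fold that in original/B6129SF1, with a log2 fold change of 0.67 ± 0.20 and an adjusted p of 0.0761, which missed the threshold of 0.05. Between adapted/B6 and adapted/B6129SF1 the log2 fold change was 0.96 (95% interval 0.50 to 1.41), with an adjusted p of 0.36. All adapted tumors together differed from original/B6129SF1 by 1.15 ± 0.17 (adjusted p = 0.00541), and the value was 1.00 without original/B6129SF1 replicate 3. All comparisons with original/B6129SF1 share the same 3 tumors. Since these are whole tumors, more cells that carry a transcript and more transcript per cell cannot be told apart here or in any result that follows.

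Pdcd1lg2, the gene of PD-L2, did not reach 1 FPKM in any tumor, so it did not enter the test across genes. It was listed at 0.25, 0.0983 and 0.252 FPKM in original/B6129SF1, at 0.160, 0.343 and 0.289 FPKM in adapted/B6129SF1, and at 0.73, 0.616 and 0.975 FPKM in adapted/B6. All 3 adapted/B6 tumors lay above all tumors in B6129SF1 hosts, while adapted/B6129SF1 and original/B6129SF1 overlapped. The mean in adapted/B6 was 3.87-fold that in original/B6129SF1 and 2.93-fold that in adapted/B6129SF1, each with an exact two-sided permutation p of 0.1, the smallest that 3 against 3 tumors can give. Fitted with no filter on low values, the log2 fold change between adapted/B6 and original/B6129SF1 was 0.56, with a limma adjusted p of 0.02. With every value under 1 FPKM, log2(FPKM + 1) stayed under 1, so a log2 fold change above 1 was not possible and the fold threshold decides nothing here.

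Lgals9, which encodes galectin-9, was higher in both adapted groups by less than the fold threshold for a differentially expressed gene (DEG), which was an adjusted p under 0.05 with an absolute log2 fold change above 1. It was 24.7, 25.2 and 24.5 FPKM in original/B6129SF1, 43.2, 36.7 and 40.8 FPKM in adapted/B6129SF1, and 34.5, 38.2 and 40.9 FPKM in adapted/B6. The original/B6129SF1 tumors lay close together, and all 6 adapted tumors lay above them. The log2 fold change against original/B6129SF1 was 0.68 ± 0.10 in adapted/B6129SF1 (limma adjusted p = 0.00736) and 0.59 ± 0.10 in adapted/B6 (limma adjusted p = 0.00949). The adapted groups overlapped, with a difference of -0.09 (95% interval -0.30 to 0.13) for adapted/B6 minus adapted/B6129SF1.

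Pvr, the gene of the ligand of TIGIT, was the only 1 of the 5 ligands with a lower mean in both adapted groups. It was 23.3, 15.7 and 29.6 FPKM in original/B6129SF1, 15.1, 14.1 and 14.3 FPKM in adapted/B6129SF1, and 15.8, 14.9 and 17.5 FPKM in adapted/B6. The original/B6129SF1 tumors were widely spread, and their lowest value was within the range of adapted/B6 but above that of adapted/B6129SF1. Its log2 fold change was -0.58 in adapted/B6129SF1 (limma adjusted p = 0.0971) and -0.44 in adapted/B6 (limma adjusted p = 0.199), so neither passed the test.

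Cd276, the gene of B7-H3, was 10.9, 10.5 and 11.5 FPKM in original/B6129SF1, 18.6, 17.1 and 10.2 FPKM in adapted/B6129SF1, and 15.5, 16.0 and 17.2 FPKM in adapted/B6. Adapted/B6129SF1 replicate 3, the tumor with the most skeletal muscle RNA, had the lowest Cd276 level of all 9, and the part of muscle in this was not tested. Cd276 had a log2 fold change of 0.40 in adapted/B6129SF1 (limma adjusted p = 0.214) and 0.53 in adapted/B6 (limma adjusted p = 0.133). Neither passed the test, although all adapted/B6 tumors lay above original/B6129SF1.

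Among the receptors, Lag3 rose in both adapted groups. Lag3, an inhibitory receptor of activated T cells and NK cells, was 1.02, 1.30 and 1.15 FPKM in original/B6129SF1, 2.85, 4.63 and 3.63 FPKM in adapted/B6129SF1, and 4.72, 3.74 and 4.12 FPKM in adapted/B6. Its lowest adapted value was above the highest original/B6129SF1 value, and the adapted groups overlapped. The log2 fold change was 1.11 ± 0.16 in adapted/B6129SF1 (limma adjusted p = 0.00761) and 1.27 ± 0.16 in adapted/B6 (limma adjusted p = 0.00424). The first of these was 0.97 without adapted/B6129SF1 replicate 2 (adjusted p = 0.021) and 0.93 with quantile normalization (adjusted p = 0.016), both just under the fold threshold. Between the adapted groups the difference was 0.15 (95% interval -0.21 to 0.52).

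Pdcd1, the gene of PD-1, had the widest standard error of the 9 genes in the test across genes. It was 1.14, 0.471 and 1.38 FPKM in original/B6129SF1, 1.17, 4.79 and 5.38 FPKM in adapted/B6129SF1, and 4.46, 1.88 and 2.31 FPKM in adapted/B6. Adapted/B6129SF1 replicate 1 lay among the original/B6129SF1 tumors, and the other 5 adapted tumors lay above them. Its log2 fold change was 1.14 ± 0.43 in adapted/B6129SF1 (limma adjusted p = 0.133) and 0.93 ± 0.43 in adapted/B6 (limma adjusted p = 0.219). Without adapted/B6129SF1 replicate 1, the first became 1.64 with an adjusted p of 0.024, so that 1 tumor decided this call. Over all adapted tumors the log2 fold change was 1.04 (adjusted p = 0.102), and it was 1.28 without that tumor (adjusted p = 0.017).

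Ctla4 was 1.11, 0.593 and 1.19 FPKM in original/B6129SF1, 0.823, 1.64 and 3.69 FPKM in adapted/B6129SF1, and 2.53, 2.95 and 2.74 FPKM in adapted/B6. Its adapted/B6 tumors lay close together above original/B6129SF1, while adapted/B6129SF1 spanned both other groups. Ctla4 had a log2 fold change of 0.54 in adapted/B6129SF1 (limma adjusted p = 0.302) and 0.94 in adapted/B6 (limma adjusted p = 0.105), and neither passed the test.

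Havcr2, the gene of TIM-3, which macrophages and dendritic cells also express, was 9.40, 11.4 and 11.5 FPKM in original/B6129SF1, 12.9, 13.7 and 20.5 FPKM in adapted/B6129SF1, and 21.7, 9.83 and 18.5 FPKM in adapted/B6. Adapted/B6 replicate 2, the tumor with the lowest Ptprc level of the adapted groups, was within the range of original/B6129SF1, and the part of leukocyte content in this was not tested. Havcr2 had a log2 fold change of 0.49 in adapted/B6129SF1 (limma adjusted p = 0.295) and 0.53 in adapted/B6 (limma adjusted p = 0.279).

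Tigit overlapped between all groups. It was 8.71, 4.0 and 11.8 FPKM in original/B6129SF1, 5.54, 8.53 and 8.64 FPKM in adapted/B6129SF1, and 8.11, 10.6 and 6.98 FPKM in adapted/B6. The original/B6129SF1 group held both the highest and the lowest tumor. The log2 fold change was -0.02 (95% interval -0.76 to 0.73) in adapted/B6129SF1 and 0.15 (95% interval -0.60 to 0.89) in adapted/B6. The sign of such small values changed with the scaling and with the tumor left out, and the intervals leave room for a change of either sign.

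**Figure D2:**
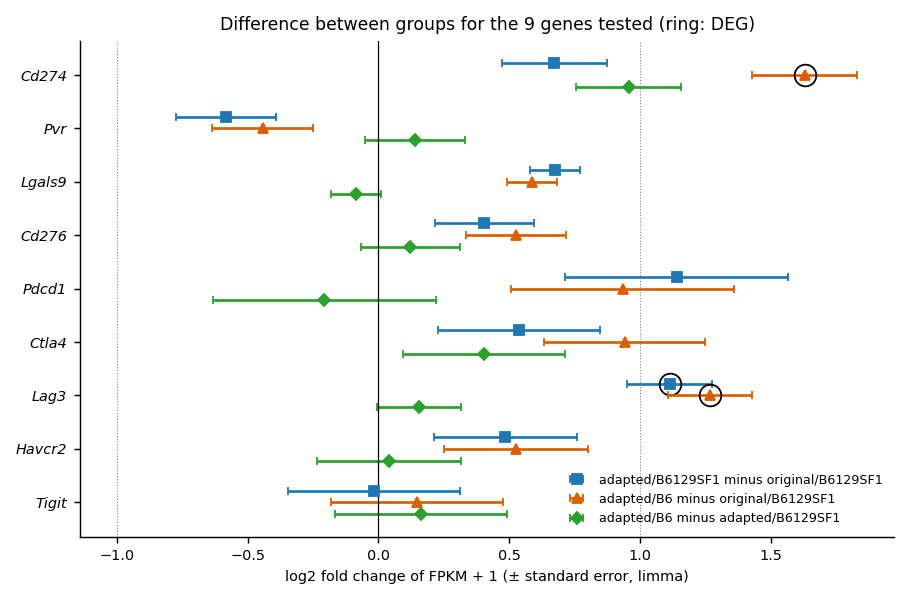
Log2 fold change of FPKM + 1 (horizontal axis) with its standard error from limma for the 9 genes tested, in adapted/B6129SF1 minus original/B6129SF1, adapted/B6 minus original/B6129SF1 and adapted/B6 minus adapted/B6129SF1. Rings mark DEGs, which were Cd274 in adapted/B6 (1.63) and Lag3 in adapted/B6129SF1 (1.11) and adapted/B6 (1.27), and dotted lines mark -1 and 1.

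Of the 9 genes tested, 1 was a DEG between adapted/B6129SF1 and original/B6129SF1, where 3.22% of all genes tested were. In adapted/B6 against original/B6129SF1, 2 of 9 were DEGs, against 3.09% of all genes. In all adapted tumors against original/B6129SF1, 2 of 9 were DEGs, against 3.39% of all genes. Between adapted/B6 and adapted/B6129SF1 limma called 0 of the 9, against 0.0292% of all genes, and 1 of the 9, Cd274, had an unadjusted p under 0.05. The median log2 fold change of the 9 was 0.54 in adapted/B6129SF1 and 0.59 in adapted/B6 against original/B6129SF1, beside -0.03 over all genes in both. It was 0.14 between the adapted groups, beside 0.01 over all genes, and 0.63 for all adapted tumors, beside -0.03.

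Groups without overlap were common in the whole table, so the counts of such genes are read against it. In adapted/B6129SF1 against original/B6129SF1, 5 of the 9 genes did not overlap, compared with 29.6% of all genes tested. In adapted/B6 against original/B6129SF1, 6 of 9 did not, compared with 32.8%. Between the adapted groups this held for 1 of 9, compared with 11.7%, and in all adapted tumors against original/B6129SF1 for 3 of 9, compared with 19.2%. In that last comparison the exact two-sided permutation p was 0.0238 for Cd274, Lgals9 and Lag3, the smallest that 6 against 3 tumors can give. By the same exact test it was 0.0476 for Pdcd1, 0.0714 for Ctla4 and Pvr, 0.0952 for Pdcd1lg2, Cd276 and Havcr2, and 0.929 for Tigit.

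Receptor levels were next set beside T cell genes of the same tumor, to ask how far they moved apart from T cell RNA. The 11 genes (Cd3d, Cd3e, Cd3g, Cd247, Cd2, Cd5, Cd6, Lck, Zap70, Lat and Trat1) encode parts of the T cell receptor complex and its signalling, and NK cells express some of them. None of the 11 was at 0 in any tumor. Their mean was 0.704, 0.558 and 0.855 FPKM in original/B6129SF1, 1.02, 3.49 and 3.26 FPKM in adapted/B6129SF1, and 3.36, 2.35 and 2.91 FPKM in adapted/B6. All adapted tumors lay above original/B6129SF1, by 3.87-fold of the means (exact two-sided permutation p = 0.0238). All 10 tested singly by limma had a log2 fold change above 0, with a median of 0.98 in adapted/B6129SF1 and 1.09 in adapted/B6. In adapted/B6129SF1, 1 (Cd3g) was a DEG, against 3.22% of all genes, and 7 had an unadjusted p under 0.05. In adapted/B6, 3 (Cd3g, Lat and Cd2) were DEGs, against 3.09% of all genes, and 9 had an unadjusted p under 0.05.

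The ratios of Lag3, Pdcd1 and Ctla4 to the T cell mean overlapped between original and adapted tumors, whereas those of Havcr2 and Tigit did not. Lag3 was 1.44, 2.32 and 1.34 times the T cell mean in original/B6129SF1, 2.80, 1.33 and 1.11 times in adapted/B6129SF1, and 1.40, 1.59 and 1.42 times in adapted/B6. The log2 difference of all adapted tumors from original/B6129SF1 was -0.10 (exact permutation p = 0.786). For Pdcd1 the log2 difference was -0.19 (exact permutation p = 0.524), and for Ctla4 it was -0.64 (exact permutation p = 0.0714).

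Tigit was 12.4, 7.16 and 13.8 times the T cell mean in original/B6129SF1, 5.43, 2.45 and 2.65 times in adapted/B6129SF1, and 2.41, 4.51 and 2.40 times in adapted/B6. Every adapted tumor lay below every original/B6129SF1 tumor, with a log2 difference of -1.78 (exact permutation p = 0.0238, adjusted p = 0.0595 over 5 receptors). Havcr2 was 13.3, 20.3 and 13.5 times the T cell mean in original/B6129SF1, 12.7, 3.93 and 6.29 times in adapted/B6129SF1, and 6.46, 4.18 and 6.37 times in adapted/B6. The groups did not overlap, with a log2 difference of -1.33 (exact permutation p = 0.0238, adjusted p = 0.0595). The level of neither gene fell over all adapted tumors (log2 fold change 0.07 for Tigit and 0.51 for Havcr2), while the T cell mean rose without overlap. The lower ratios thus largely restate the rise of the denominator and do not show less receptor in each T cell. After adjustment no receptor passed the threshold, and 0.0595 is the smallest adjusted value that 2 receptors at the smallest p can share. Beside the leukocyte gene Ptprc in place of the T cell genes, the log2 difference was smaller and the groups overlapped for both Tigit (-0.78, exact permutation p = 0.0714) and Havcr2 (-0.33, exact permutation p = 0.19). Over Cd3e alone the log2 difference of Havcr2 was -1.46, but the groups overlapped (exact permutation p = 0.0714), and that of Tigit was -1.92 without overlap (exact permutation p = 0.0238).

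**Figure D3:**
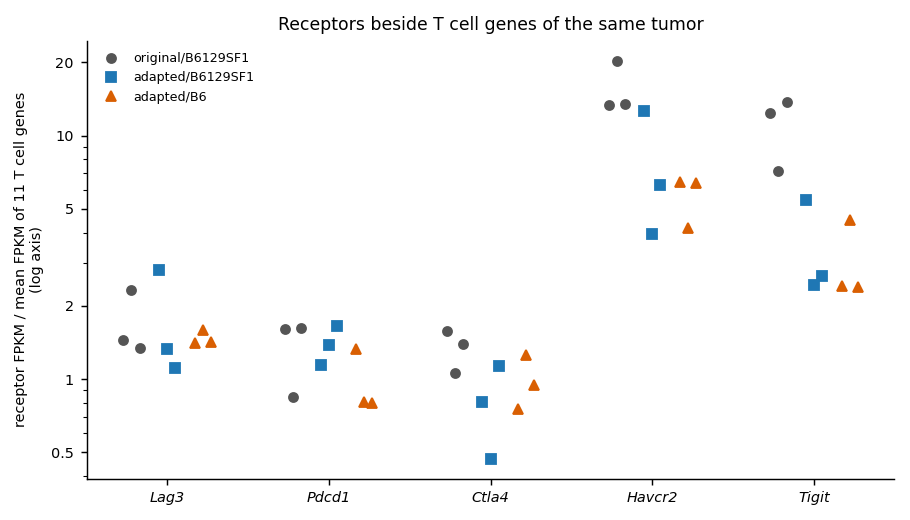
Ratio of each receptor's FPKM to the mean FPKM of 11 T cell genes in the same tumor, on a log axis, 1 point a tumor. Tigit was between 7.16 and 13.8 in original/B6129SF1 and between 2.40 and 5.43 in the 6 adapted tumors, while Lag3 overlapped between groups.

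Ligands were then related to their receptors tumor by tumor over 9 pairs. A correlation over all tumors is given only for the 4 pairs in which neither gene had a group apart from all other tumors. Ctla4, Cd86, Havcr2 and Pvr did separate 2 of the groups from each other, so these values can still carry a difference between groups. In the pair of Cd86 and Ctla4, both genes separated adapted/B6 from original/B6129SF1. As a description within groups, r of the deviations from group means is given beside each. The strongest of these 4 by Pearson's r was between Ctla4 and its ligand Cd80, which dendritic cells and macrophages carry. Cd80 was 1.43, 0.852 and 2.22 FPKM in original/B6129SF1, 1.29, 1.45 and 2.51 FPKM in adapted/B6129SF1, and 2.26, 2.0 and 2.64 FPKM in adapted/B6. The correlation with Ctla4 was r = 0.84 (exact permutation p = 0.00729, adjusted p = 0.0357 over 9 pairs) and rho = 0.83 (exact permutation p = 0.00827, adjusted p = 0.0372). It was 0.78 for deviations from group means and 0.66 without the 2 tumors farthest from the median of Cd80, and on FPKM without a log the adjusted p was 0.0564.

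Cd86, the other CTLA-4 ligand, correlated with Ctla4 at r = 0.76 (exact permutation p = 0.0177, adjusted p = 0.053) and rho = 0.85 (exact permutation p = 0.00607, adjusted p = 0.0372). The value was 0.61 for deviations from group means and 0.87 without the 2 tumors farthest from the median of Cd86, and on FPKM without a log it was 0.66 (exact permutation p = 0.0553, adjusted p = 0.166). Ceacam1 and Havcr2 correlated at r = 0.82 (exact permutation p = 0.00792, adjusted p = 0.0357) and rho = 0.78 (exact permutation p = 0.0172, adjusted p = 0.0517), at 0.94 for deviations from group means and at 0.68 without the 2 tumors farthest from the median of Ceacam1. On FPKM without a log its adjusted p was 0.0503. Pvr and Tigit correlated at r = 0.42 (exact permutation p = 0.246, adjusted p = 0.277) and rho = 0.18 (exact permutation p = 0.644, adjusted p = 0.724). For deviations from group means it was 0.70, a value that followed the widely spread original/B6129SF1 tumors. In both adapted groups the tumor with the highest Pvr had the lowest Tigit. The correlation over all tumors rested on 2 original/B6129SF1 tumors, since it was -0.35 without the 2 farthest from the median of Pvr.

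For the other 5 pairs, ratios or correlations within the 6 adapted tumors are given. The ratio of Cd274 to Pdcd1 was 5.54, 10.1 and 2.67 in original/B6129SF1, 6.36, 1.84 and 1.61 in adapted/B6129SF1, and 3.25, 8.0 and 9.71 in adapted/B6. The groups overlapped, and within adapted tumors the ratio was lowest in adapted/B6129SF1 replicates 2 and 3, which had the most Pdcd1. The ratio of Pdcd1lg2 to Pdcd1 was 0.22, 0.209 and 0.182 in original/B6129SF1, 0.137, 0.0715 and 0.0537 in adapted/B6129SF1, and 0.164, 0.327 and 0.422 in adapted/B6. All adapted/B6129SF1 tumors lay below both other groups (exact permutation p = 0.1 for each), which overlapped with each other. The ratio of Lgals9 to Havcr2 overlapped between all groups, at 2.13 to 2.63, 1.99 to 3.34 and 1.59 to 3.88. Deviations from group means, a description over 9 tumors, had r = 0.04 for Cd274 and Pdcd1 and r = 0.57 for Pdcd1lg2 and Pdcd1.

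H2-Ab1, which encodes a chain of the MHC class II ligand of LAG-3, was 95.4, 68.6 and 112 FPKM in original/B6129SF1, 247.5, 738 and 662 FPKM in adapted/B6129SF1, and 248.3, 118 and 196 FPKM in adapted/B6. It rose in adapted/B6129SF1 by 2.44 ± 0.43 on the log2 scale (limma adjusted p = 0.0142), while the value in adapted/B6 was 0.98 ± 0.43 (adjusted p = 0.203). All 5 MHC class II genes tested rose as DEGs in adapted/B6129SF1, against 3.22% of all genes, with a median log2 fold change of 2.44. In adapted/B6 limma called 0 of them, against 3.09% of all genes (2 at an unadjusted p under 0.05, median 0.89). The difference of H2-Ab1 between the adapted groups was -1.46 for adapted/B6 minus adapted/B6129SF1 (limma adjusted p = 0.602). The ratio of H2-Ab1 to Lag3 was between 86.7 and 182 in adapted/B6129SF1 and between 31.6 and 52.6 in adapted/B6, without overlap (exact permutation p = 0.1). Within the 6 adapted tumors H2-Ab1 and Lag3 correlated at r = 0.21 (exact permutation p = 0.693, adjusted p = 0.744 over 3 pairs) and rho = 0.26 (exact permutation p = 0.658, adjusted p = 0.803), and at -0.02 without the 2 tumors farthest from the median. Lgals9 and Havcr2 correlated there at r = -0.17 (exact permutation p = 0.744, adjusted p = 0.744) and rho = -0.37 (exact permutation p = 0.497, adjusted p = 0.803), and at 0.74 without the 2 farthest. For Fgl1, a secreted ligand of LAG-3, and Lag3 the values there were r = -0.22 (exact permutation p = 0.697, adjusted p = 0.744), rho = -0.14 (exact permutation p = 0.803, adjusted p = 0.803) and 0.54 without the 2 farthest. The r of 0.21 for H2-Ab1 and Lag3 pools 2 groups with unlike H2-Ab1 means. Deviations from group means, a description over 9 tumors, had r = 0.76 for H2-Ab1 and Lag3. They had r = -0.15 for Lgals9 and Havcr2 and r = 0.17 for Fgl1 and Lag3.

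**Figure D4:**
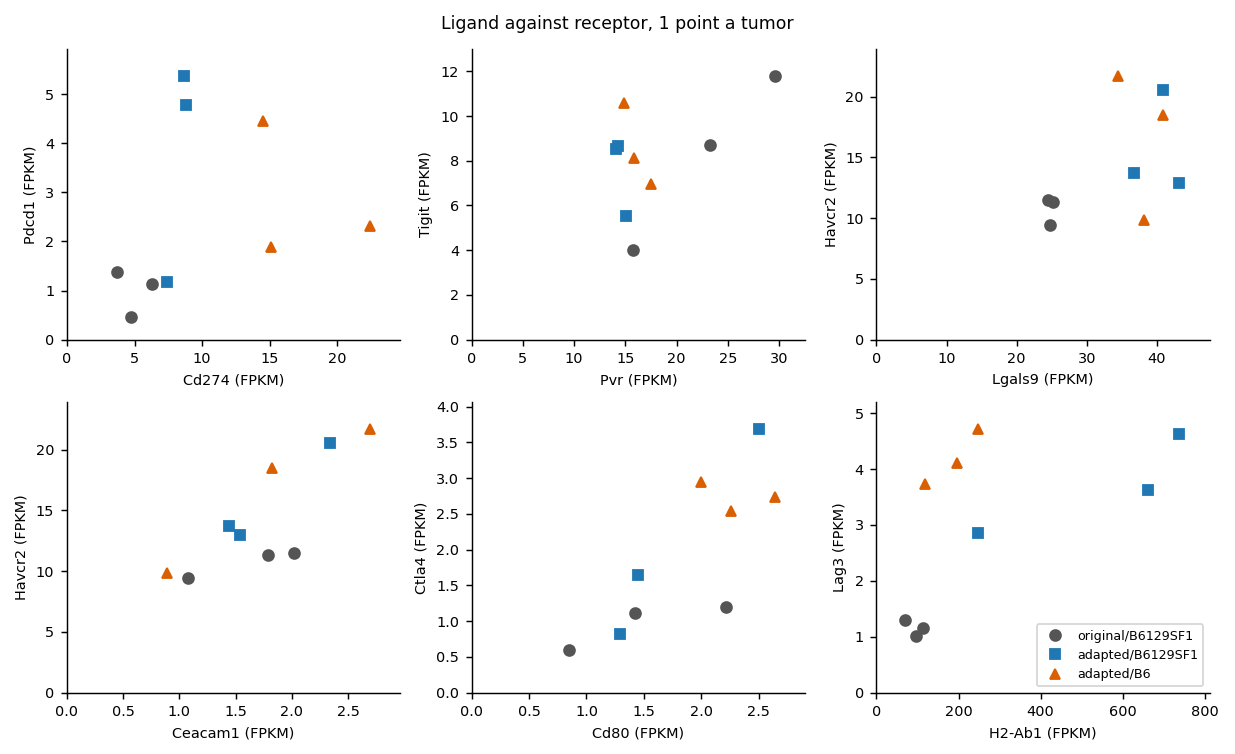
Receptor (vertical axis, FPKM) against ligand (horizontal axis, FPKM) for 6 pairs, 1 point a tumor. On log2(FPKM + 1), r was 0.84 for Cd80 with Ctla4, 0.82 for Ceacam1 with Havcr2 and 0.42 for Pvr with Tigit. On the FPKM plotted, it was 0.81, 0.83 and 0.52. Lag3 overlapped between the adapted groups.

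A list of other inhibitory ligands and receptors had 14 genes tested, among them Cd80, Cd86 and Icosl, whose products bind costimulatory receptors. The counts are therefore not of inhibitory genes alone. Of the 14, 13 had a log2 fold change above 0 in each adapted group against original/B6129SF1. The remaining gene, Btn1a1, was below 0 in both. As DEGs, 2 rose (Tnfrsf14 and Lair1) and 1 fell (Btn1a1) in adapted/B6129SF1, against 3.22% of all genes. In adapted/B6, 3 rose (H2-T23, Tnfrsf14 and Lair1) and 1 fell (Btn1a1), against 3.09% of all genes. By limma, 5 of the 14 had an unadjusted p under 0.05 in adapted/B6129SF1 and 8 in adapted/B6. Tnfrsf14, which encodes the BTLA ligand HVEM, was between 1.95 and 3.71 FPKM in original/B6129SF1 and between 6.27 and 10.4 FPKM in all adapted tumors. Lair1, a collagen receptor that inhibits leukocytes, was between 5.32 and 5.64 FPKM in original/B6129SF1 and between 9.0 and 19.5 FPKM in all adapted tumors. Btn1a1, a butyrophilin gene, was between 1.67 and 6.37 FPKM in original/B6129SF1 and at most 0.0969 FPKM in any adapted tumor. The median log2 fold change of the 14 was 0.43 in adapted/B6129SF1 and 0.52 in adapted/B6, beside the -0.03 of all genes. Between the adapted groups 0 of the 14 were DEGs by limma, 1 had an unadjusted p under 0.05, and the median was 0.01.

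Costimulatory genes, the activating counterparts of the checkpoint genes, were called against original/B6129SF1 in adapted/B6. Of 7 tested, 3 rose as DEGs in adapted/B6 (Tnfrsf9, Tnfrsf18 and Icos), against 3.09% of all genes. In adapted/B6129SF1 limma called 0, against 3.22% of all genes, and 4 had an unadjusted p under 0.05. Tnfrsf9, the gene of 4-1BB, was between 5.03 and 6.38 FPKM in original/B6129SF1, between 4.30 and 8.08 FPKM in adapted/B6129SF1 and between 13.4 and 18.8 FPKM in adapted/B6. Its difference between the adapted groups was 1.15 on the log2 scale, with a limma adjusted p of 0.293, so a difference between the adapted groups was not shown.

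Of the genes of the interferon-gamma axis, which induces PD-L1 in many cells, some rose in each adapted group. Of 18 tested, 5 rose and 0 fell as DEGs in adapted/B6129SF1, against 3.22% of all genes. In adapted/B6, 9 rose and 0 fell, against 3.09% of all genes. The median log2 fold change of the 18 was 0.53 and 0.87. Ifng itself was between 0.107 and 0.216 FPKM in original/B6129SF1, between 0.158 and 1.5 FPKM in adapted/B6129SF1 and between 1.45 and 2.72 FPKM in adapted/B6, and rose in adapted/B6 by 1.46 on the log2 scale (limma adjusted p = 0.023). Cxcl9, a T cell chemoattractant that interferon induces, rose by 2.69 on the log2 scale in adapted/B6129SF1 (limma adjusted p = 0.00933) and by 3.49 in adapted/B6 (limma adjusted p = 0.00305). Jak2, a kinase of the receptor, had a log2 fold change of -0.07 in adapted/B6129SF1 and 0.14 in adapted/B6, and neither passed the test. Between the adapted groups 0 of the 18 were DEGs by limma, 7 had an unadjusted p under 0.05, and the median was 0.23.

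Of 7 tested genes from a list known to regulate the PD-L1 protein, limma called 0 in adapted/B6129SF1 and 0 in adapted/B6, against 3.22% and 3.09% of all genes. Of these 7, 3 and 2 had an unadjusted p under 0.05. Cmtm6, which keeps PD-L1 at the cell surface, was between 23.4 and 30.5 FPKM in all 9 tumors. Hip1r, which directs PD-L1 to lysosomes, was between 9.16 and 10.5 FPKM in original/B6129SF1 and between 4.21 and 5.56 FPKM in all adapted tumors. Its log2 fold change was -0.77 in adapted/B6129SF1 (limma adjusted p = 0.00806) and -0.85 in adapted/B6 (limma adjusted p = 0.00483), past the p threshold but under the fold threshold.

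Markers of other cells that could carry these transcripts moved unevenly, and their part in the results above was not tested. The counts called stand beside 3.22% of all genes in adapted/B6129SF1 and 3.09% in adapted/B6. Of 7 leukocyte genes, 1 (Cd52) rose in adapted/B6129SF1 and limma called 0 in adapted/B6 (4 at an unadjusted p under 0.05), and their sum was between 314 and 356 FPKM in original/B6129SF1, between 470 and 679 FPKM in adapted/B6129SF1 and between 385 and 749 FPKM in adapted/B6. Of 10 macrophage and monocyte genes, 1 (Ccr2) rose in adapted/B6129SF1 and limma called 0 in adapted/B6 (3 at an unadjusted p under 0.05), and their sums overlapped, at 1592 to 1867, 1825 to 2933 and 1286 to 2230 FPKM. Of 4 NK cell genes tested, limma called 0 in adapted/B6129SF1 (2 at an unadjusted p under 0.05) and 2 (Gzmb and Gzma, which cytotoxic T cells also express) rose in adapted/B6, with sums over all 7 in the table of 6.52 to 19.1, 16.1 to 27.6 and 43.4 to 64.4 FPKM. Gzmb alone, at 28.7 to 46.8 FPKM, made up most of the sum in adapted/B6. The NK cell genes not tested were at most 0.609 FPKM in any tumor. Of 5 dendritic cell genes tested, 1 (Clec9a) rose in both adapted groups, and the 10 in the table summed to 3.85 to 6.56, 11.5 to 14.8 and 12.8 to 14.9 FPKM. Of 7 epithelial and thyroid genes tested, 1 (Krt8) fell, with a log2 fold change of -1.32 in adapted/B6129SF1 (limma adjusted p = 0.0189) and -1.12 in adapted/B6 (limma adjusted p = 0.0346), and the 11 in the table summed to 683 to 1035, 304 to 601 and 448 to 499 FPKM. B cell genes summed to at most 1.46 FPKM in any tumor and 0 of 5 were tested, and Ms4a1, which defines B cells, was at 0 in 3 tumors. Of 6 regulatory T cell genes listed, 5 had a row used here and 1 (Il10) was tested and did not pass, so the regulatory share of Ctla4 and Tigit was not tested.

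Genes with a pattern most like each checkpoint gene were ranked among the 10263 genes tested, as a description. The ranking was by Pearson's r of log2(FPKM + 1) over the 9 tumors. Cd274, Pdcd1lg2, Lgals9 and Lag3 each had a group apart from all other tumors, so their r can carry that difference between groups. Cd274 was most like Tgtp1 (0.98), Gm12185 (0.98) and Irf1 (0.98), of which Tgtp1 is an interferon-inducible GTPase gene and Irf1 a transcription factor of the interferon response. Irf1 was 39.7, 30.3 and 30.6 FPKM in original/B6129SF1, 42.5, 67.4 and 54.4 FPKM in adapted/B6129SF1, and 84.8, 82.4 and 117 FPKM in adapted/B6, so it ranked the groups as Cd274 did. Lag3 was most like Lat (0.99), Serpina3g (0.98) and H2-M3 (0.97), and Lat encodes a signalling adaptor of T cells that is also among the 11 T cell genes. Pdcd1 was most like Gimap1 (0.98), Parvg (0.97) and Nod2 (0.96), which leukocytes express. Ctla4 was most like Gm4841 (0.95), Il27ra (0.95) and Tspan9 (0.95).

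Several genes of like pattern are not known as T cell genes. Pdcd1lg2 was most like Aldh1l2 (1.00), Asns (0.99) and Adm2 (0.98), of which Asns makes asparagine and Aldh1l2 is a mitochondrial folate enzyme gene. Aldh1l2 was 2.81, 1.43 and 2.52 FPKM in original/B6129SF1, 2.13, 3.97 and 2.92 FPKM in adapted/B6129SF1, and 8.63, 7.05 and 13.0 FPKM in adapted/B6. Its adapted/B6 tumors, like those of Pdcd1lg2, lay above all others. Pvr was most like Hbegf (0.98), a growth factor gene, Epha2 (0.97), a receptor tyrosine kinase gene, and Iffo2 (0.97). Lgals9 was most like Rem1 (0.98), Trim30a (0.98) and P2rx7 (0.97), and Cd276 was most like Ciz1 (0.97), Lama5 (0.97) and Pcbp3 (0.96). Havcr2 was most like Trpm2 (0.96), Ctsh (0.96) and Fgr (0.94), of which Fgr is a myeloid kinase gene. Tigit had the weakest best match, with Pdia6 (0.92), Fam110a (0.88) and Samd1 (0.86), and Pdia6 encodes a protein disulfide isomerase of the endoplasmic reticulum.

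**Figure D5:**
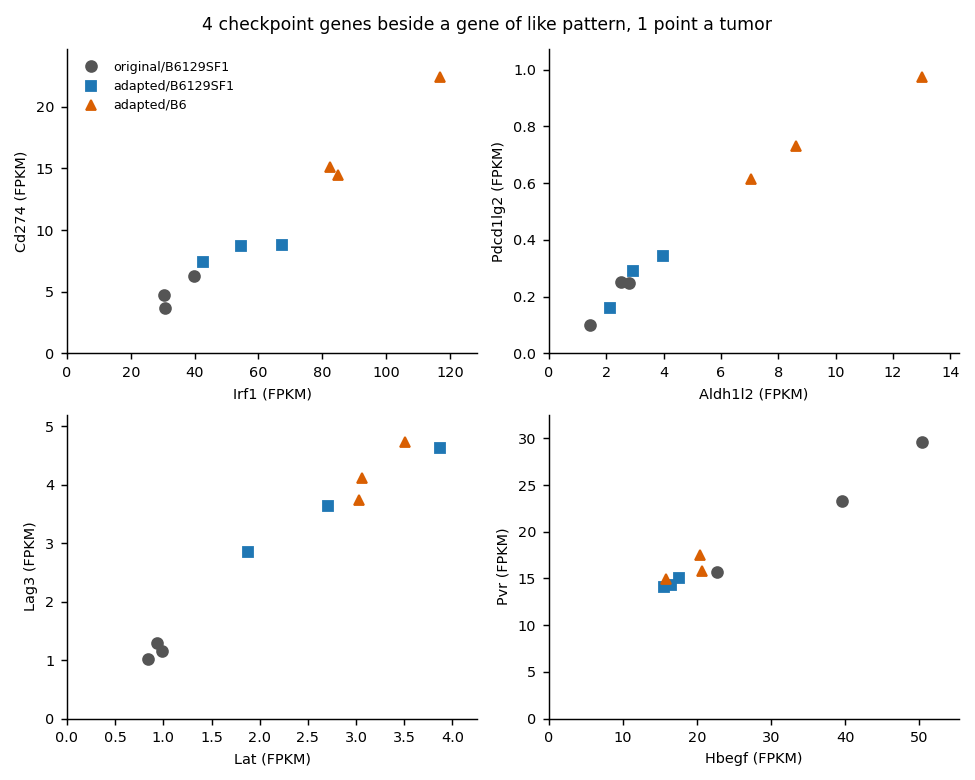
Level of 4 checkpoint genes (vertical axis, FPKM) against a gene of like pattern (horizontal axis, FPKM), 1 point a tumor. Each r is of log2(FPKM + 1). Cd274 with Irf1 (r = 0.98) and Pdcd1lg2 with Aldh1l2 (r = 1.00) were highest in the adapted/B6 tumors, Lag3 with Lat (r = 0.99) in all adapted tumors, and Pvr with Hbegf (r = 0.98) in 2 original/B6129SF1 tumors.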

How the data were processed

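RNA of 9 whole tumors was measured, and each table column was matched to a tumor by its label. According to the study's methods, the authors prepared TrueSeq libraries, ran paired-end sequencing on a HiSeq2000, applied FastQC, used HISAT2 for alignment to mm10 and made FPKM values with Cuffnorm for an estimate of cell proportions. The submitters' processing notes name Cuffnorm and Cuffdiff with no role, and the deposited FPKM values were taken to be those of Cuffnorm. The gene annotation, the scaling within Cuffnorm and any filter on genes were not given in the sources used here. FPKM scales with length and with a factor for each tumor, so a tumor rich in 1 kind of RNA can lower all other values. FPKM values are not counts, so no count test was used. The steps between low values gave no common depth (21 to 51 of 679 genes shared a step), so depth is unknown and the number of tumors limits the precision.

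Values were taken as log2(FPKM + 1), which understates fold changes of low genes. A gene was tested where 3 or more tumors reached 1 FPKM (10263 genes), by limma 3.58.1 under R 4.3.3 (mean-variance trend, 3 groups in 1 model), with Benjamini-Hochberg adjustment over all of them. The procedure was tested on simulated data. Exact two-sided permutation tests (scipy 1.17.1) were used for single values and correlations. The labels number the tumors as biological replicates and give no litter or batch. The same numbers in different groups did not pair the tumors (correlations of deviations from -0.388 to 0.614).

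The genes and lists were chosen with earlier results of these data known. Some genes of the lists are not reported here and were left out of the list counts and sums. Genes named are the 10 checkpoint genes, their partners, at most 6 genes of a list (called genes first by adjusted p, then by level), and the 3 genes most like each checkpoint gene. Tshr, Nkx2-1, Icosl, Ifng, Jak2, Cmtm6, Hip1r, Ms4a1, Ptprc and Il10 were named after their values were seen. Sequences and positions were not used here, since no mouse reference was at hand. Alternatives were another pseudocount, filter, scaling, sample set, block and variance prior, and leaving out each tumor.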

Additional observations from a re-analysis of the deposited data

How the results depend on the processing

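With 3 tumors a group, 1 tumor could move a call. In adapted/B6129SF1 against original/B6129SF1, limma called 1 of the 9 genes, 0 after quantile normalization, 2 by adjusted p alone and between 0 and 2 when 1 tumor was left out (0 without adapted/B6129SF1 replicate 2 and 2 without adapted/B6129SF1 replicate 1). The count for all adapted tumors was 2, and between 1 and 3 when 1 tumor was left out (1 without original/B6129SF1 replicate 3 and 3 without adapted/B6129SF1 replicate 1). The counts of 2 in adapted/B6 against original/B6129SF1 and 0 between the adapted groups did not change when any tumor was left out. A replicate block in the model gave counts of 1, 2, 0 and 2 in the 4 comparisons, and so changed none of them. Leaving out 1 tumor turned the sign of small values that had passed no test. The Tigit log2 fold change was between -0.40 and 0.28 in adapted/B6129SF1, between -0.24 and 0.44 in adapted/B6, between -0.32 and 0.36 in all adapted tumors and between -0.021 and 0.29 for adapted/B6 minus adapted/B6129SF1. In that last comparison it was between -0.13 and 0.27 for Cd276, between -0.70 and 0.076 for Pdcd1 and between -0.17 and 0.36 for Havcr2. For Tigit in adapted/B6129SF1 it was 0.0028 with upper quartile scaling and 0.00061 with totals without muscle genes. Without the 2 tumors richest in muscle RNA, an alternative chosen after seeing the data, Cd276 was -0.10 for adapted/B6 minus adapted/B6129SF1. Beside Ptprc in place of the T cell genes, the log2 difference of the ratio between all adapted tumors and original/B6129SF1 was 0.81 for Pdcd1, 0.36 for Ctla4 and 0.89 for Lag3 (adjusted exact permutation p = 0.198, 0.476 and 0.179). Those 3 turned sign, and the cause was not tested. For Lag3 over the T cell mean, leaving out 1 tumor gave values between -0.28 and 0.14. The correlation of Pvr and Tigit was -0.35 without 2 tumors.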

Other observations

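Cytotoxic and coreceptor genes of T cells were also read beside the checkpoint genes. Cd8a, a coreceptor gene of cytotoxic T cells, was 1.01, 0.532 and 0.416 FPKM in original/B6129SF1, 0.541, 4.78 and 3.55 FPKM in adapted/B6129SF1, and 5.21, 3.11 and 4.16 FPKM in adapted/B6. Adapted/B6129SF1 replicate 1 lay among the original/B6129SF1 tumors, and limma gave an adjusted p of 0.163 in adapted/B6129SF1 and 0.0596 in adapted/B6. Gzmb, a granzyme gene of cytotoxic lymphocytes, was between 3.22 and 11.2 FPKM in original/B6129SF1, between 8.89 and 13.2 FPKM in adapted/B6129SF1 and between 28.7 and 46.8 FPKM in adapted/B6. It rose in adapted/B6, with a log2 fold change of 2.43 (limma adjusted p = 0.007), and its difference between the adapted groups was 1.81 (adjusted p = 0.322).

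Of 7 genes associated with T cell exhaustion that were tested, 1 was a DEG in adapted/B6129SF1, against 3.22% of all genes. In adapted/B6 limma called 0, against 3.09% of all genes, and 5 had an unadjusted p under 0.05. Nr4a2, an orphan nuclear receptor gene, had a log2 fold change of -1.22 in adapted/B6129SF1 (limma adjusted p = 0.00239), and of -0.97 in adapted/B6 (adjusted p = 0.00397). Tox, a transcription factor gene of exhausted T cells, was at most 0.594 FPKM in any tumor and was not tested.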
